A study of Mus musculus with 3 samples.

Results

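Gluconeogenesis is the synthesis of glucose from lactate, amino acids and glycerol, and in the fasted animal the liver carries most of it. The genes followed here are the 8 whose symbols were fixed for this account, namely the enzymes Pck1, G6pc, Fbp1, Pcx and Sds and the regulators Ppargc1a, Foxo1 and Irs2, out of 23361 genes in the tables. All 8 were found in each of the 3 tables with the quantification status OK. Pyruvate carboxylase (Pcx) makes oxaloacetate in the mitochondrion, phosphoenolpyruvate carboxykinase (Pck1) turns it into phosphoenolpyruvate, fructose-1,6-bisphosphatase (Fbp1) removes a phosphate further up the pathway, and the catalytic subunit of glucose-6-phosphatase (G6pc) releases free glucose. Serine dehydratase (Sds) feeds serine into the pathway as pyruvate. In fasting, glucagon acting through cAMP and glucocorticoid acting through its receptor raise transcription of Pck1 and G6pc, with the coactivator PGC-1alpha (Ppargc1a) and the forkhead factor FOXO1 (Foxo1) taking part. Insulin acts in the opposite direction through the docking protein IRS2 (Irs2) and the kinase AKT, which keeps FOXO1 out of the nucleus.

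The mice were C57BL/6J animals labelled male, 8 to 10 weeks old, and had been without food for 12 h before surgery. The Sham sample came from mice with a laparotomy and no occlusion, killed 90 min later. The WI sample came from mice whose left and median lobes, 70% of the liver, were clamped for 90 min, and the IR sample from mice with the same clamping followed by 2 h of reperfusion. Each group has 1 mRNA library, the study describes 6 mice per group, and how many mice went into a library is not given in the sources used here. No sham matches the IR sample in time, so reperfusion and the longer time after surgery cannot be told apart. The values are FPKM, fragment counts scaled by transcript length and library size, each with a lower and an upper 95% bound that holds the error of the authors' count model and no variation between mice. No test over mice was therefore possible, and every difference below compares 1 library with another.

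The libraries themselves differ in several ways that bear on these values. Xist, the transcript of the inactive X chromosome, stood at an FPKM of 18.9 (Sham), 20.1 (WI) and 1.29 (IR). The Y-linked Eif2s3y stood at 13.2 in IR and was listed at 0 in the other two. The Sham and WI libraries thus go against their label of male, and in comparisons with the IR sample the sex of the mice and reperfusion cannot be told apart. Summed over all genes, FPKM came to 475754 in Sham, 487912 in WI and 712423 in IR. Rescaling each library to the same sum (TPM) therefore moves the median change of all genes to -0.40 in either comparison with IR, against 0.03 (IR with WI) and 0.05 (IR with Sham) for the deposited values, on the log2 scale used below. Among low values, the most common ratio between samples, which is that of the worth of 1 fragment, was 0.901 for WI to Sham and 1.27 for IR to Sham. The study also reports a lower share of uniquely aligned mRNA read pairs for IR than for Sham and WI. The hepatocyte markers Ttr, Apoa1, Tf, Cps1 and Fgb were all detected, while Alb was listed at 0 throughout with the status given to loci with too many fragments to process. That status was held by 1 locus in Sham, 1 in WI and 7 in IR. How these loci bear on the sums and on TPM was not tested. In whole liver, fewer cells of a type and less RNA per cell cannot be told apart.

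The DNA before the start of 3 members is shown because the values below turn on them. G6pc had the largest difference between samples of the 8 members, Ppargc1a had the same order of samples, and Pck1 is the other textbook target of glucagon. RefSeq promoter entries (GRCm38.p6, the same assembly as mm10) were found for 7 of the 8 members. The runs below are the 250 bases before the start, 5′ to 3′ on the gene's strand, with the core of the cAMP response element, TGACG or its reverse CGTCA, in capitals. Their positions are chr11:101367466-101367715 on the plus strand for G6pc, chr2:173152823-173153072 on the plus strand for Pck1 and chr5:51567726-51567975 on the minus strand for Ppargc1a. Ppargc1a is read on the minus strand, and its RefSeq entry lies upstream of the gene model in the files, whose 5′ end is at 51553921.
G6pc: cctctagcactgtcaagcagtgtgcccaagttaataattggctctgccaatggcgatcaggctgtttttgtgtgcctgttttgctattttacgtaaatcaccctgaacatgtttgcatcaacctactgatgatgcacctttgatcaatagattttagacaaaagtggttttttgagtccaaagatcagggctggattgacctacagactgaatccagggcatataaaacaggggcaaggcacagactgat
Pck1: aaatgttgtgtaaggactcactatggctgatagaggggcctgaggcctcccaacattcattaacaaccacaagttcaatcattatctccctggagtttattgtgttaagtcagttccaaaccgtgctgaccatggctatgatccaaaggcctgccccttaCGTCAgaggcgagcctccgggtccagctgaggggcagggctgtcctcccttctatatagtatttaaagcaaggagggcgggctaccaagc
Ppargc1a: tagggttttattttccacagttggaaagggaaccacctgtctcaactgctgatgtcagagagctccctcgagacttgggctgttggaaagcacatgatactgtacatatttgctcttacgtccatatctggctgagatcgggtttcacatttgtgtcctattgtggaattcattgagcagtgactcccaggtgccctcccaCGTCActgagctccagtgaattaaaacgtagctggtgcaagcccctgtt

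The core lay once in the Pck1 run, beginning 90 bases before the start, and once in the Ppargc1a run, beginning 49 bases before its RefSeq start. That RefSeq start is not the start of the gene model behind the Ppargc1a values. It was not in the G6pc run, nor in those of Fbp1, Pcx, Foxo1 and Irs2. Of all 32851 RefSeq promoter entries, 17.8% held TGACG on either strand. The forkhead motif GTAAACA, searched on both strands, was in none of the members' runs and in 3.17% of all entries. These matches describe letters in a short window only. Variant forms of either site were not searched, so a run without a match, such as that of G6pc, may still hold such a site.

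G6pc, which encodes the last enzyme of glucose output, was the member that differed most. The gene lies on chromosome 11 of mm10 from 101367730 to 101377903. The Sham library gave 335 FPKM (95% bounds 130 to 541), the WI library 152 (69.9 to 234) and the IR library 78.1 (39.2 to 117). The level was highest in Sham and lowest in IR, and the bounds of these 2 samples did not overlap, whereas those of Sham and WI and of WI and IR did. The log2 ratio was -1.14 for WI to Sham (95% interval from the deposited bounds -2.32 to 0.04), -0.96 for IR to WI (-2.02 to 0.10) and -2.10 for IR to Sham (-3.24 to -0.96). On the scale of log2(FPKM + 1), used from here on for changes and for the 2-fold threshold, G6pc fell by 1.13 at ischemia and by 2.09 from Sham to IR. Its change from WI to IR was -0.95, just short of 2-fold. Among the 10792 genes that reached an FPKM of 1 in any sample, 88 (0.815%) were as far or farther down from Sham to WI, and 23 (0.213%) from Sham to IR. Ordered by level, G6pc was gene 226 in Sham, 514 in WI and 980 in IR.

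**Figure D1:**
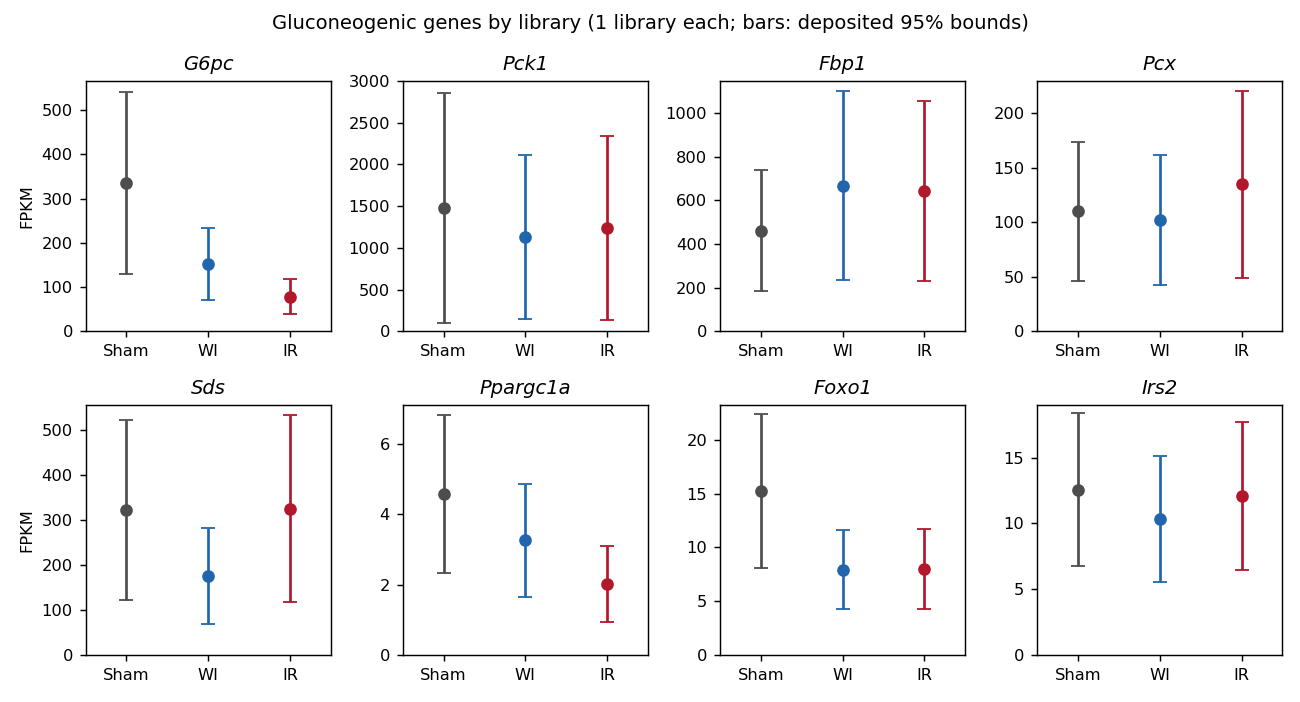
FPKM of the 8 genes in the Sham, WI and IR samples, 1 library each, with every axis starting at 0 and bars for the deposited 95% bounds. G6pc steps down from 335 to 152 to 78.1, Ppargc1a shows the same order at a far lower level, Sds dips in WI only, and the bounds of most genes overlap widely.

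No other enzyme passed 2-fold in any comparison. Pck1 (chromosome 2, 173153073 to 173159253) had the highest level of the 8 genes in each library, with 1483 FPKM for Sham (95% bounds 102 to 2863), 1132 for WI (148 to 2117) and 1238 for IR (140 to 2337). Its bounds are the widest of the members, with a coefficient of variation of 44.4% to 47.5%, and they overlapped in every pair. The log2 ratio of IR to Sham was -0.26 with an interval of -2.12 to 1.60, which reaches as low as the value for G6pc. At this precision a difference between Pck1 in Sham and in IR was not detectable. Fbp1 (chromosome 13, 62864753 to 62888282) was the only member with a higher value in WI than in Sham, at 461 in Sham (183 to 739), 667 in WI (234 to 1101) and 641 in IR (229 to 1053). Pcx (chromosome 19, 4510472 to 4621752) stood at 110 in Sham (45.9 to 174), 102 in WI (42.02 to 161) and 135 in IR (48.9 to 221). Its model has 2 start sites, and Lrfn4, at an FPKM below 1 in each sample, shares its locus. For both genes the bounds of all 3 samples overlapped, and the log2 ratio of IR to Sham had an interval of -0.80 to 1.75 for Fbp1 and -0.95 to 1.54 for Pcx. Under TPM their changes from Sham to IR were -0.11 and -0.29 on the log2 scale with the pseudocount. Relative to the median of all genes these were 0.30 and 0.12, against 0.42 and 0.24 as deposited.

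Sds had another shape, low in the WI sample alone. It stood at 322 FPKM in Sham (95% bounds 122 to 521), at 176 in WI (69.2 to 283) and at 325 in IR (117 to 532). The change was -0.87 from Sham to WI and 0.88 from WI to IR, both under 2-fold, and 0.01 from Sham to IR, the last turning to -0.57 under TPM. Among all genes 1.69% were as far down from Sham to WI. The bounds overlapped in all 3 pairs, so the dip is a value of the WI library that its own error did not set apart. The locus given for Sds (chromosome 5, 120476547 to 120503623) is shared with Plbd2, whereas RefSeq ends Sds at 120483932, and how fragments were divided between these genes was not tested.

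The regulators had lower FPKM, a scale per transcript length, than any of the enzymes. Ppargc1a (chromosome 5, 51454249 to 51553921) stood at 4.58 in Sham (95% bounds 2.33 to 6.82), 3.26 in WI (1.66 to 4.87) and 2.02 in IR (0.932 to 3.10). Like G6pc it was highest in Sham and lowest in IR. The bounds of Sham and IR overlapped, and the log2 ratio of IR to Sham was -1.18 (-2.23 to -0.13). With the pseudocount, which understates the change of low genes, the change was -0.89 and under 2-fold. With a pseudocount of 0.1 it was -1.14 and past 2-fold.

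Foxo1 (chromosome 3, 52268337 to 52350109) stood at 15.2 in Sham (95% bounds 8.10 to 22.4), 7.92 in WI (4.25 to 11.6) and 8.02 in IR (4.31 to 11.7). The WI and IR values lay close together, with WI 1.92-fold below Sham. The log2 ratio was -0.94 for WI to Sham (-1.89 to 0.01) and 0.02 for IR to WI (-0.93 to 0.96). For IR to Sham it was -0.93 (-1.88 to 0.02). The bounds overlapped in all 3 pairs as deposited. Under TPM the change from Sham to IR was -1.35, past 2-fold with bounds apart, where 11.5% of all genes passed 2-fold. The share of all genes with bounds apart under TPM was not computed. The change from WI to IR under TPM was -0.46, which is -0.06 relative to the median of all genes. Irs2 differed least, with 12.6 in Sham (6.73 to 18.4), 10.3 in WI (5.54 to 15.1) and 12.1 in IR (6.47 to 17.7). Its range over the samples was 0.26 on the log2(FPKM + 1) scale, against 2.09 for G6pc. The files give Irs2 the locus from 10986964 to 11054541 on chromosome 8, shared with 9530052E02Rik, while RefSeq places the gene from 10984681 to 11008929.

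The members past each threshold are set beside the share of all 10792 genes, which depends on the pseudocount. From Sham to WI, 1 of 8 members (G6pc) was at least 2-fold lower and 0 were 2-fold higher, where 1.10% of all genes were lower and 0.751% higher. From WI to IR the count was 0 in both directions, where 1.43% of all genes were lower and 5.78% higher. From Sham to IR it was again 1, G6pc, lower, where 2.15% of genes were lower and 5.35% higher. At 1.5-fold the counts were 3 (G6pc, Foxo1, Sds) beside 7.41% of all genes, 2 (G6pc, Sds) beside 19.8%, and 3 (G6pc, Ppargc1a, Foxo1) beside 23.8%, in the same order. By their bounds 0 members were apart for WI and Sham, 0 for IR and WI, and 1 (G6pc) for IR and Sham. Over all genes these shares were 0.676%, 3.61% and 3.82%.

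The median change of the 8 members was -0.39 from Sham to WI, with 7 of 8 lower, beside 0.02 over all genes, of which 47.3% were lower. From WI to IR it was 0.07 with 5 of 8 higher, beside 0.03 over all genes, of which 47.5% were lower. Under TPM, which multiplies each library by 1 factor, 4 of these 5 (all but Sds) had the opposite sign. Of these 4, Pcx (0.26) and Irs2 (0.11) stayed above the median of all genes. With the fixed pseudocount, low values shift less under TPM than high ones, so positions relative to the median shift too. From Sham to IR the median change of the members was -0.16 with 5 of 8 lower, beside 0.05 over all genes, of which 45.6% were lower. Under TPM all 8 were lower, with Fbp1 (0.30) and Pcx (0.12) still above the median of all genes. The Sham sample stood highest for G6pc, Pck1, Ppargc1a, Irs2 and Foxo1. The comparisons share samples in pairs, so their values are not independent of each other. The members made up 0.576% of the summed FPKM in Sham, 0.461% in WI and 0.342% in IR. Their summed FPKM was 2742, 2251 and 2439, so it was higher in IR than in WI while their share was lower.

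**Figure D2:**
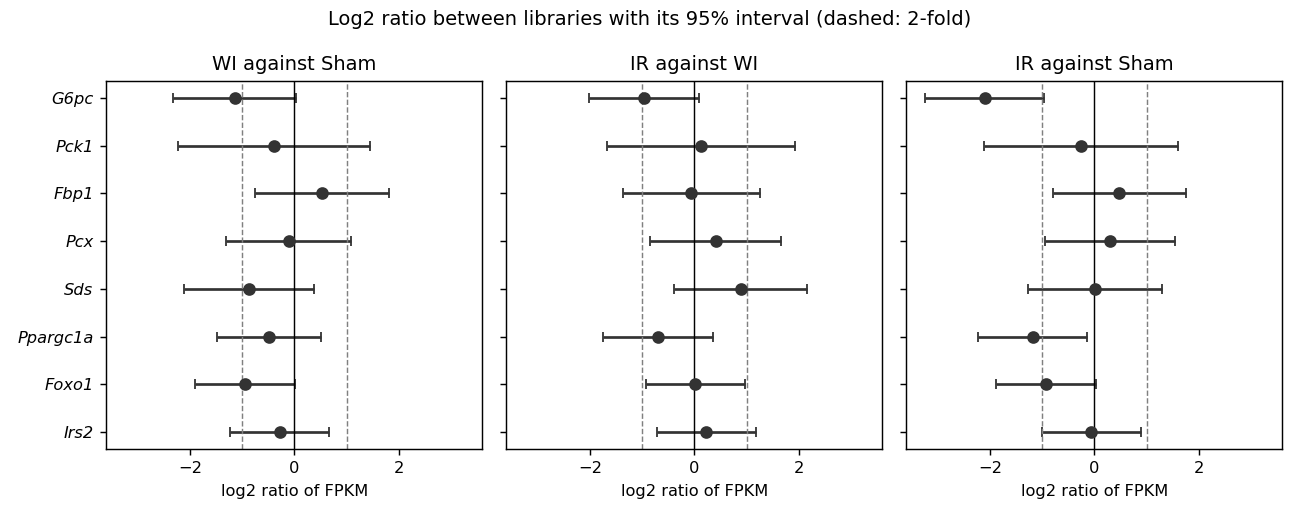
Log2 ratio of FPKM for the 8 genes in the 3 comparisons, with 95% intervals worked out from the deposited bounds and dashed lines at 2-fold. The intervals that lie wholly below 0 are those of G6pc and Ppargc1a for IR against Sham.

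**Figure D3:**
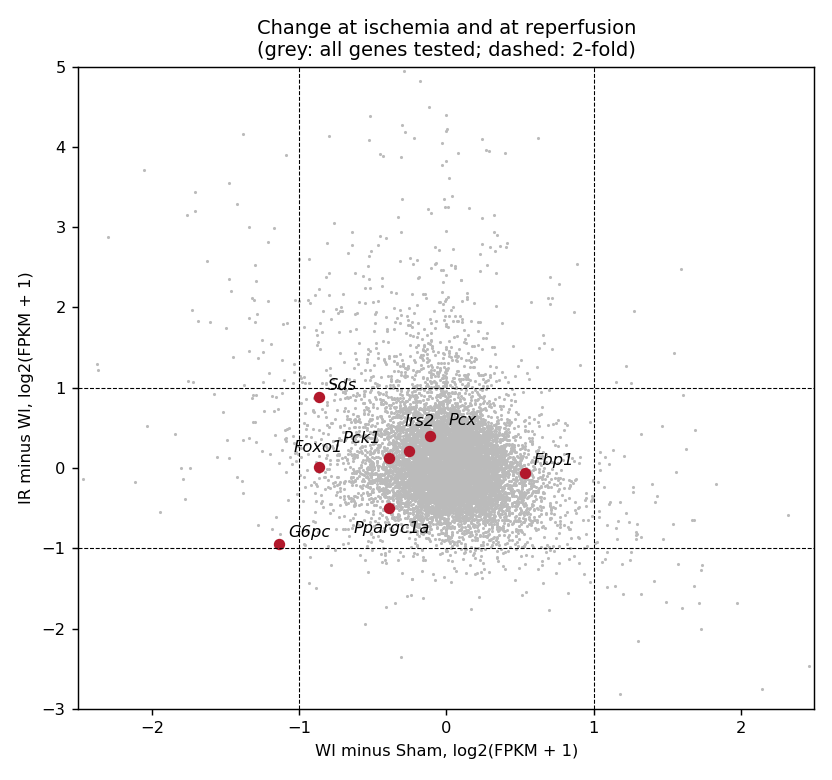
Change from Sham to WI (horizontal) and from WI to IR (vertical) in log2(FPKM + 1), with all 10792 genes in grey and the 8 members in red; 39 genes lie outside the axes. Both axes use the WI sample, so a value off in that library alone moves a gene along the falling diagonal, where Sds lies, while G6pc and Ppargc1a lie below 0 on both.

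Ratios between genes of 1 library do not depend on how that library was scaled. The FPKM of G6pc was 0.727 times that of Fbp1 in Sham (95% interval 0.308 to 1.72), 0.228 times in WI (0.0979 to 0.530) and 0.122 times in IR (0.0540 to 0.274). The intervals of Sham and IR did not overlap. Relative to Pck1 the ratio went from 0.226 in Sham (0.0741 to 0.689) to 0.134 in WI and 0.0631 in IR (0.0228 to 0.174), with overlapping intervals. The glucose-6-phosphatase reaction also needs the transporter SLC37A4, which carries glucose 6-phosphate into the endoplasmic reticulum. G6pc stood at 2.26 times Slc37a4 in Sham (1.003 to 5.08), 1.58 times in WI (0.753 to 3.30) and 0.724 times in IR (0.355 to 1.48). These intervals overlapped too. G6pc3, a ubiquitous isoform expressed at a low level, gave ratios of 150.1 in Sham (61.7 to 365), 55.3 in WI and 22.8 in IR (10.5 to 49.7), with the Sham and IR intervals apart.

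**Figure D4:**
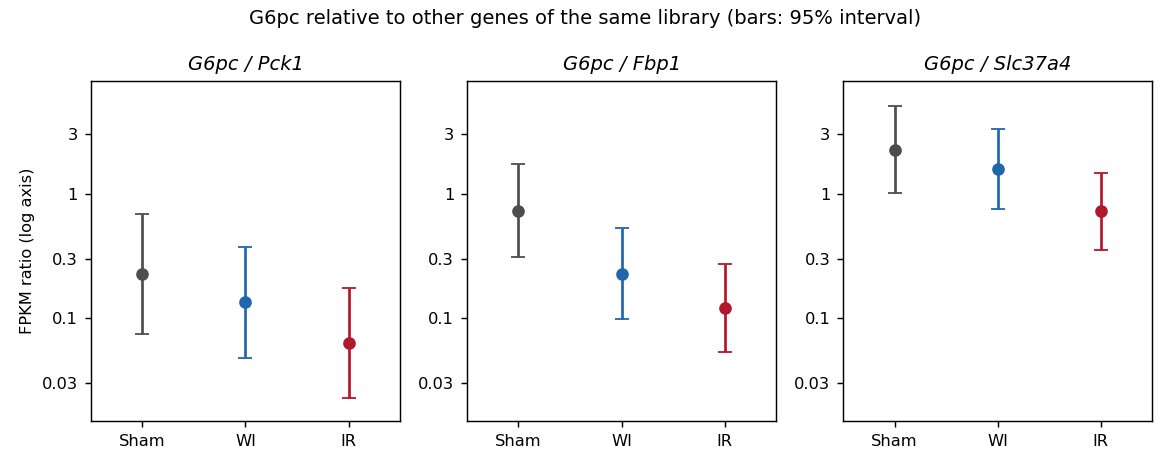
FPKM of G6pc divided by that of Pck1, Fbp1 or Slc37a4 in the same sample, on a log axis, with 95% intervals. Each ratio is highest in Sham and lowest in IR, and of the 3 ratios drawn, that to Fbp1 has Sham and IR intervals that are apart (0.727 and 0.122).

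Of 104 further genes of the pathway, in 6 lists, 99 reached an FPKM of 1 in any sample. From Sham to WI, 2 of the 99 were 2-fold higher and 3 lower (2.02% and 3.03%). From WI to IR, 12 were higher and 2 lower (12.1% and 2.02%), and from Sham to IR, 9 and 2 (9.09% and 2.02%). The shares over all genes are those given above. Under TPM 28 of the 99 passed from Sham to IR, 4 of them higher, so the direction of the list counts in comparisons with IR rests on the scale. The same holds for all genes, of whose calls 71.3% were higher from Sham to IR as deposited and 20.8% under TPM.

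The isoforms and glucose transporters held no such gene. Pck2, the mitochondrial isoform, stood at 1.58, 1.58 and 1.23 FPKM in Sham, WI and IR. The ubiquitous G6pc3 had 2.23, 2.75 and 3.42, a change of 0.45 from Sham to IR, with overlapping bounds. Slc37a4 had 148, 96.5 and 108, and the glucose transporter Slc2a2 had 133, 163 and 92.0. Fbp2 and G6pc2, which muscle and pancreatic islets use, stayed below 1.

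Among the 27 genes that supply substrate, Got1 had the same dip in WI as Sds. Got1, a cytosolic aspartate aminotransferase, stood at 340 FPKM in Sham (95% bounds 133 to 546), 143 in WI (66.5 to 219) and 300.05 in IR (121 to 480), a change of -1.25 and then 1.07. Its bounds overlapped in each pair. Tat, the tyrosine aminotransferase and a glucocorticoid target, had 1713, 864 and 1027, a change of -0.99 at ischemia. In IR alone, Slc16a1, a lactate and pyruvate transporter, was higher, with 24.9 against 9.37 in Sham and 8.29 in WI. Its bounds in WI (4.44 to 12.1) and IR (13.04 to 36.8) did not overlap, whereas those of Sham (5.03 to 13.7) and IR did. Sdsl, a relative of Sds, had 6.38, 6.27 and 15.3 with overlapping bounds, and so did not follow the dip of Sds. The list median was 0.08, 0.11 and 0.18 in the 3 comparisons.

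In the list of opposing steps, Pfkfb3 and Pdk4 passed 2-fold. Pfkfb3, which makes the fructose 2,6-bisphosphate that inhibits Fbp1, stood at 3.21, 3.44 and 14.9 FPKM, with bounds in IR (7.36 to 22.3) apart from those of WI (1.68 to 5.20) and of Sham. Pdk4, a kinase that spares pyruvate by shutting off pyruvate dehydrogenase, stood at 135 in Sham (59.2 to 212), 16.1 in WI (8.62 to 23.5) and 79.8 in IR (38.05 to 122). Its WI bounds were apart from both others, and Pdk4 was the one list gene apart between Sham and WI. The liver form Pfkfb1 had 20.4, 12.9 and 9.95, a change of -0.97 from Sham to IR. The median of the 11 genes was -0.35 from WI to IR.

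In glucagon and cAMP signaling, the receptor Gcgr stood at 79.3, 90.1 and 108 FPKM. The coactivator Crtc2 had 9.76, 8.06 and 14.8, and Creb1 1.88, 1.81 and 1.30. From WI to IR, 4 of 19 genes were 2-fold higher, namely Atf3, Crem, Cebpb and Pde4b. Crem, whose short form ICER represses cAMP targets, had 7.99, 9.14 and 27.99 (11.8 to 44.2 in IR). Atf3 had 8.72, 5.76 and 114, and its bounds in IR (54.8 to 173) were apart from those of the other samples. Cebpb, a factor that binds the Pck1 promoter, had 158, 113 and 334, and the cAMP phosphodiesterase Pde4b 7.47, 6.28 and 14.6. The bounds of Crem, Cebpb and Pde4b overlapped in each pair of samples. The kinase Sik1, which restrains CRTC2, had 30.3, 16.2 and 18.1.

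Of the nuclear receptors and their partners, Nr0b2, Ppara and Stat3 passed 2-fold. Nr0b2, the corepressor SHP, stood at 11.6 FPKM in Sham (5.75 to 17.5), 30.02 in WI (16.1 to 44.0) and 5.99 in IR (2.65 to 9.32), so it was highest in WI and its bounds in WI and IR were apart. Ppara, the fatty acid receptor of fasting, had 41.2, 43.2 and 17.2 (8.03 to 26.3 in IR), with overlapping bounds. Stat3, which carries the IL-6 signal, had 19.5, 24.0 and 52.3, also with overlapping bounds. The glucocorticoid receptor Nr3c1 had 15.96, 15.9 and 8.98, a change of -0.76 from WI to IR. Hnf4a had 144, 122 and 136.

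In insulin signaling, 21 genes reached the threshold of level. From Sham to WI 1 was 2-fold higher and 1 lower, beside 0.751% and 1.10% of all genes. From WI to IR 2 were higher and 0 lower, beside 5.78% and 1.43%. From Sham to IR 2 were higher and 1 lower, beside 5.35% and 2.15%. Igfbp1, a target of FOXO1 that insulin shuts off, stood at 761 FPKM in Sham (260 to 1263), 305 in WI (134 to 476) and 559 in IR (211 to 906), a change of -1.32 and then 0.87 with overlapping bounds. Srebf1, which insulin raises, had 33.7, 77.7 and 57.7. Socs3, an inhibitor of cytokine and insulin receptors, had 3.14, 5.38 and 109, with IR bounds (50.5 to 167) apart from the others. The phosphatase Ptpn1 had 8.43, 6.62 and 16.5, Trib3 had 1.81, 2.60 and 5.65, and the kinase Sgk1 had 30.0, 14.8 and 13.6. The bounds of Srebf1, Ptpn1, Trib3 and Sgk1 overlapped in each pair of samples. Insr had 16.1, 15.3 and 9.10, and Irs1 2.17, 2.58 and 0.927. From Sham to IR 14 of the 21 genes were lower, with a median of -0.18, beside 45.6% lower and a median of 0.05 over all genes.

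**Figure D5:**
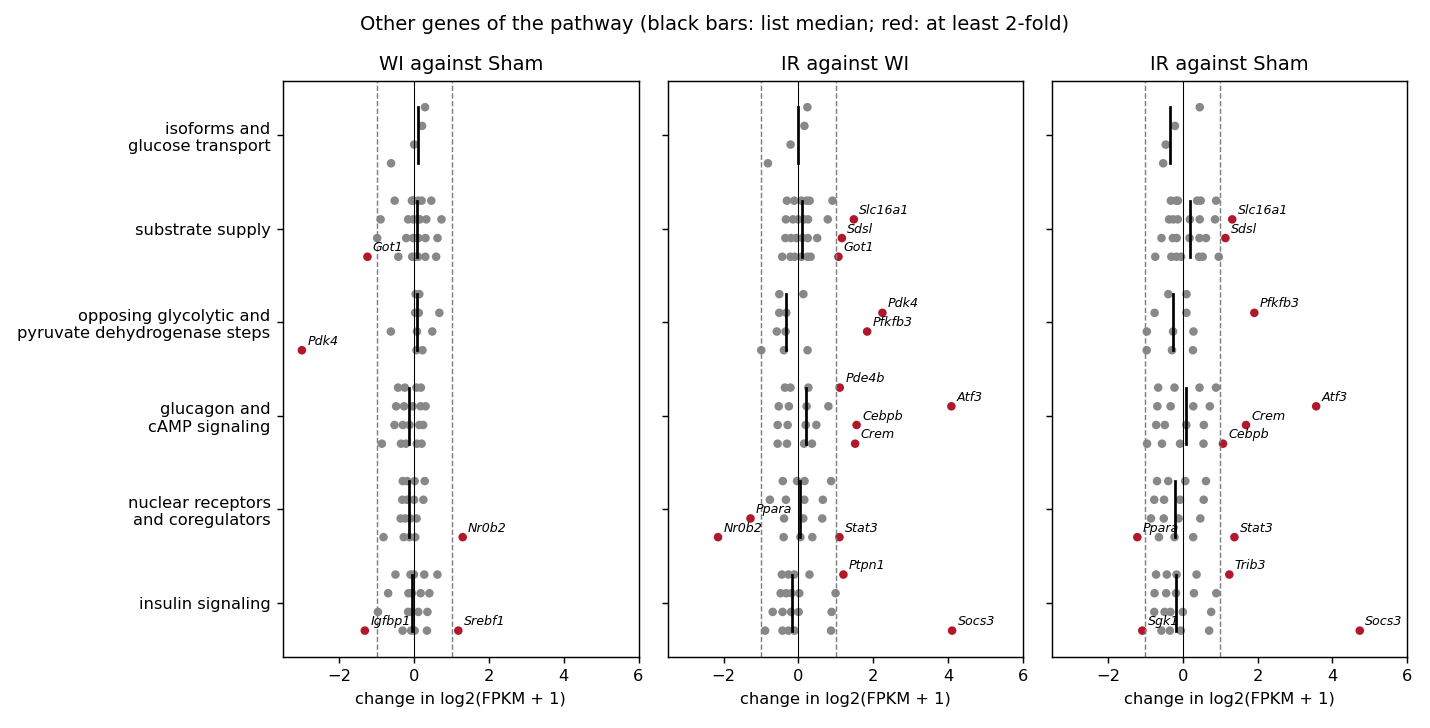
Change in log2(FPKM + 1) of the 99 other pathway genes in the 3 comparisons, by list, with the list median as a black bar and genes at or past 2-fold in red. Pdk4 lies farthest down from Sham to WI, its FPKM going from 135 to 16.1, and Atf3 and Socs3 lie farthest up from WI to IR (4.09 and 4.11).

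Markers of other cells moved along with some of these values. All 6 Kupffer cell and macrophage markers were detected, with a summed FPKM of 442 in Sham, 221 in WI and 138 in IR, and 5 of the 6 were 2-fold lower in IR than in Sham, Marco being the exception. This is the order of G6pc, and the part of these cells in the G6pc values was not tested. The 5 detected hepatocyte markers summed to 20919, 19874 and 27844, beside 475754, 487912 and 712423 over all genes. Neutrophil markers summed to 24.2, 18.6 and 456 (4 of 4 tested genes 2-fold higher from WI to IR, Mpo below the filter and at 0 in IR) and erythroid markers to 1018, 693 and 2719 (4 of 4), both in the direction of Socs3 and Atf3. Gluconeogenesis lies mainly in periportal hepatocytes. Periportal markers had a median change of 0.34 from Sham to IR with 7 of 8 higher, while pericentral ones had -0.49 with 8 of 8 lower. Over all genes the median was 0.05 and 45.6% were lower. These directions hold for FPKM as deposited. The markers were not recomputed under TPM, which moves the median of all genes to -0.40 from Sham to IR. The endothelial, stellate, cholangiocyte and lymphocyte markers summed to 80.1 to 111, 102 to 144, 54.2 to 93.6 and 2.06 to 6.41 over the samples. The part of these cells in the members' values was not tested.

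The genes nearest to a member in pattern were sought by the distance between their 2 changes (Sham to WI and WI to IR) over the 3 samples, for the members with the widest range. For G6pc they were Emr1 (distance 0.126), G0s2 (0.167) and Igj (0.174), and 4 genes in all lay within 0.25. Emr1, an older symbol of the macrophage marker Adgre1, stood at 22.5, 9.74 and 5.06 FPKM, and G0s2, an inhibitor of triglyceride breakdown, had 262, 134 and 68.9. For Ppargc1a they were Oxct1, Gm19522 and Fam126b, at most 0.0235 away, with 346 genes within 0.25. For Sds they were Baiap2l1, Gpr116 and Jdp2, with 44 genes within 0.25. A pattern of 3 values is shared easily, as the 346 genes around Ppargc1a show.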

How the data were processed

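Reads were aligned to mm10 by the authors with TopHat 2.0.9, who then computed FPKM per gene with Cuffdiff of Cufflinks 2.0.2 at default parameters, as the study's methods and the submitters' processing notes give it. The deposited tables hold, for 3 libraries and 23361 genes, the FPKM with its 95% bounds and a status. Gene annotation and strand setting are not given in the sources used here. The tables hold no counts, so the depth behind a gene is unknown beyond the relative worth of 1 fragment. Locus starts count from 0 and were raised by 1 after comparison with RefSeq.

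Differences were computed as log2(FPKM + 1) over the 10792 genes with an FPKM of 1 or more in any library and were called at 2-fold. Intervals of log2 ratios were propagated from the upper bounds (delta method) and, like the bounds, hold model error only. The members, the lists and the motifs were chosen with earlier results of these data known. Named genes are the members, list genes past 2-fold in any comparison, and the 3 nearest genes of the 3 members with the widest range, and further list genes were chosen after their values were seen. Of 172 list entries 170 matched, 4 by a RefSeq synonym. Alternatives were pseudocounts, filters, fold thresholds and rescaling. The scripts (Python 3.11.15, numpy 2.4.6, pandas 2.3.3) were tested on simulated data.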

Additional observations from a re-analysis of the deposited data

How the results depend on the processing

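G6pc was lower in each comparison under every pseudocount and rescaling tried, but none of these settings could have turned it. A pseudocount cannot change the sign of a difference, and both rescalings lowered WI against Sham and IR against WI. No called member changed direction, and all called members were lower ones, so the same holds for them. Rescaling FPKM to a common sum (TPM) shifted the median of all genes to -0.40 from WI to IR and -0.40 from Sham to IR, since the IR sum is far larger. Relative to that shift G6pc stood at -1.09 and -2.26, against -0.98 and -2.14 as deposited. The fixed pseudocount damps the shift of low values, so these positions are not free of the scale. Under TPM the members past 2-fold were 1 (G6pc) from WI to IR and 3 (G6pc, Ppargc1a, Foxo1) from Sham to IR, the same 3 had bounds apart from Sham to IR, and the list genes past 2-fold were 28 from Sham to IR, 4 of them higher. The share of all genes with bounds apart was not recomputed under TPM, so that count of members has no background. Of all genes 9.84% and 11.5% then passed 2-fold, and from Sham to IR 983 genes were lower, against 232 as deposited. The share of higher genes among all calls was 29.1% and 20.8%, against 80.2% and 71.3% on FPKM as deposited. Of 96 recomputed member values 9 changed sign, none of them G6pc, 7 under TPM and 2 under the median ratio (Foxo1 from WI to IR at -0.02 and Sds from Sham to IR at -0.05). Without a pseudocount or with 0.1, 2 members (G6pc, Ppargc1a) passed from Sham to IR, where the share of all genes past 2-fold was 13.8% without and 13.2% with 0.1, against 7.50% at a pseudocount of 1. From Sham to WI these shares were 4.04%, 3.54% and 1.85%, and from WI to IR 12.2%, 11.5% and 7.21%. At 1.5-fold 3, 2 and 3 members and 18, 28 and 36 list genes passed in the order WI against Sham, IR against WI and IR against Sham. At 4-fold 0, 0 and 1 members and 1, 4 and 2 list genes passed. Of all genes 7.41%, 19.8% and 23.8% passed at 1.5-fold, and 0.222%, 1.80% and 1.54% at 4-fold. The cause of these differences was not tested beyond the construction of each setting. Under the median ratio and with a minimum of 5, the counts stayed within 1.5 times. Without a filter they could not change. At a pseudocount of 1, no gene below an FPKM of 1 in every sample can reach 2-fold. The orders of the samples gave 0 neighbouring pairs with bounds apart as deposited and under both rescalings, which were added after seeing the data. No replicate could be left out and no library replaced. No paired analysis was possible because each group has 1 library.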
